A study of Sus scrofa with 2 samples.

Results

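The genes described here are 9 viral RNA sensors and interferon signalling factors, out of 25322 gene IDs in a table of expression in the hippocampus of Rongchang piglets (Sus scrofa). They are RIGI, IFIH1, DDX60 and EIF2AK2, whose proteins bind viral RNA or help others to do so, the transcription factors IRF1, IRF7, IRF9 and STAT2, and the protease USP18. The rows were found by Ensembl pig gene ID, and all 9 symbols matched 1 row each. The set was chosen by measured values: genes of the interferon response had been seen to be higher in iron dextran in this same pair of samples, so the differences below are a description and no test is attached to them. The control group was 1 hippocampus sample of Rongchang piglets labelled as control, and the other group was 1 hippocampus sample of Rongchang piglets given iron dextran, an injectable complex of iron with a sugar polymer. Both carry the genotype label "wide type" and the stage label piglet. The label of each sample holds 2 names, and whether these are animals, libraries or runs is not given in the sources used here, nor are the dose, the age in days or the time between injection and sampling. The comparison asks how iron dextran altered transcript levels in the hippocampus, which the brain needs to form memories. With 1 sample per group there is no replicate error to set a difference against, and a difference between piglets cannot be told apart from a difference between treatments.

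RIG-I (the product of RIGI) and MDA5 (the product of IFIH1) are helicases of the cytosol that recognise double-stranded viral RNA and pass the signal through the mitochondrial adaptor MAVS to kinases that activate the transcription factors IRF3 and IRF7, which switch on type I interferon genes. Secreted interferon binds its receptor, and the kinases JAK1 and TYK2 then activate STAT2, which joins IRF9 in the complex ISGF3; this complex induces many antiviral genes, the sensors and IRF7 among them. USP18 removes the ubiquitin-like protein ISG15 from its targets and also blocks the receptor, so it closes the loop. In the brain, microglia, astrocytes, neurons and endothelial cells can all respond to interferon.

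All 9 genes had a higher FPKM (fragments counted per kilobase of transcript and set relative to the mapped fragments of the sample) in the iron dextran sample than in the control sample. Their summed level was 39.3 FPKM in control and 65.9 FPKM in iron dextran, a ratio of 1.675. IRF9 and IRF7 together made up 52.5% of the summed gain of 26.6 FPKM, and the 3 lowest genes (IFIH1, DDX60 and EIF2AK2) made up 5.31% of it. The ratio of iron dextran to control ran from 1.21 for STAT2 to 5.76 for DDX60. The levels were spread over a 104.5-fold range in control and a 30.2-fold range in iron dextran, since the lowest 2 genes of the control sample had the largest ratios. The order by level in control, highest first, was IRF9, STAT2, IRF7, IRF1, RIGI, USP18, EIF2AK2, IFIH1 and DDX60. In iron dextran IRF7 stood above STAT2, USP18 above RIGI and IFIH1 above EIF2AK2, and the other genes kept their places. With 1 sample per group, it is not known which neighbours in these orders differ beyond their spread.

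**Figure D1:**
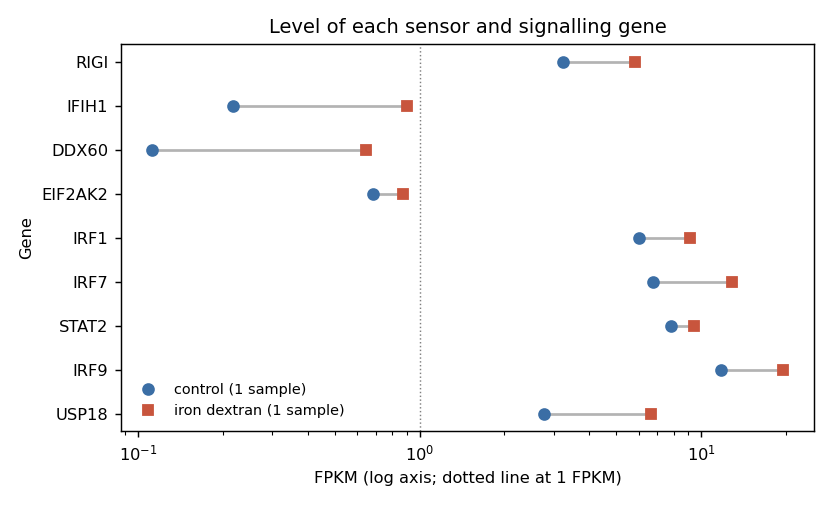
FPKM of each of the 9 genes on a log axis, with a circle for the control sample, a square for the iron dextran sample and a dotted line at 1 FPKM. Every square lies to the right of its circle, and the longest lines belong to DDX60 and IFIH1, both below 1 FPKM in each sample.

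Among the 4 RNA sensors and helpers of the 9 genes, the gene of RIG-I had the highest level in both samples and the genes of MDA5 and DDX60 differed most in ratio. RIGI (ENSSSCG00000030408; DDX58 in older annotation) had 3.22 FPKM in control and 5.81 FPKM in iron dextran, a ratio of 1.80. IFIH1 (ENSSSCG00000015897) had 0.217 FPKM in control and 0.902 FPKM in iron dextran, a ratio of 4.15. The listed level of the MDA5 gene was thus low in control and stayed below 1 FPKM in iron dextran. DDX60 (ENSSSCG00000009720), which encodes a helicase reported to assist RIG-I-like receptors, had 0.113 FPKM in control and 0.648 FPKM in iron dextran, a ratio of 5.76. FPKM is scaled by transcript length, so levels can be set side by side within a sample as far as the annotated transcripts are right. The annotation used is not stated, and its part in gaps between genes was not tested. The level of RIGI was 14.8 times that of IFIH1 in control and 6.44 times in iron dextran. The level of RIGI was 28.6 times that of DDX60 in control and 8.96 times in iron dextran. These within-sample ratios do not depend on how the samples are scaled to each other.

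EIF2AK2 (ENSSSCG00000008496) encodes PKR, a kinase that binds double-stranded RNA and phosphorylates the translation factor eIF2 alpha. It had 0.684 FPKM in control and 0.874 FPKM in iron dextran, a ratio of 1.28, which was the second smallest of the set. RIGI was at 4.71 times the level of EIF2AK2 in control and at 6.64 times in iron dextran, so in relation to RIGI the PKR gene was lower in iron dextran, where IFIH1 and DDX60 were higher. IFIH1, DDX60 and EIF2AK2 were below 1 FPKM in both samples, and because the number of fragments sequenced is unknown, no counting interval can be given for them. Of 1978 genes with a mean between 0.3 and 1 FPKM and a value above 0 in both samples, 2.02% had a ratio of at least 4, as IFIH1 and DDX60 did; these limits were set after the values had been seen.

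The 4 transcription factors were above the 4 RNA sensors and helpers in level, least so over RIGI, and differed in ratio. IRF7 (ENSSSCG00000012853), which amplifies type I interferon production, had 6.75 FPKM in control and 12.9 FPKM in iron dextran, a ratio of 1.92. IRF1 (ENSSSCG00000014277), an activator of interferon-induced genes that also responds to interferon gamma, had 6.03 FPKM in control and 9.10 FPKM in iron dextran, a ratio of 1.51. IRF9 (ENSSSCG00000002002), the DNA-binding part of ISGF3, had 11.8 FPKM in control and 19.5 FPKM in iron dextran, a ratio of 1.66, and it was the most abundant of the 9 in both samples. STAT2 (ENSSSCG00000000396), its partner in ISGF3, had 7.80 FPKM in control and 9.46 FPKM in iron dextran, a ratio of 1.21, the smallest of the 9.

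IRF9 and STAT2 therefore did not differ to the same degree. The level of IRF9 was 1.51 times that of STAT2 in control and 2.07 times in iron dextran. IRF3, the factor that sensors activate without new synthesis, went the other way from IRF7, with 19.8 FPKM in control and 15.6 FPKM in iron dextran. IRF7 was at 0.341 times the level of IRF3 in control and at 0.827 times in iron dextran.

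USP18 (ENSSSCG00000000774) had 2.78 FPKM in control and 6.66 FPKM in iron dextran, a ratio of 2.40, the largest among the 6 genes with a mean of at least 1 FPKM. Of the enzymes that work with ISG15, HERC5, a ligase, had 0.473 FPKM in control and 2.003 FPKM in iron dextran. HERC6, of the same family, had 6.31 and 8.72 FPKM. The activating enzyme UBA7 had 4.64 and 5.94 FPKM, and the conjugating enzyme UBE2L6 had 48.2 FPKM in iron dextran against 46.3 in control. Of the 7 genes listed for this system 6 matched and 5 passed the filter; all 5 were above 0 and 1, HERC5, which passed through its iron dextran value, was past 1.5-fold, the limit used below (median log2 difference 0.30). ISG15 itself had no ID paired with that symbol.

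Set against all genes, the differences were taken as log2(FPKM + 1), where the added 1 shrinks those of low genes, and over the 12557 genes with a mean of at least 1 FPKM. Of the 9 genes, 6 passed this filter, and 4 of the 6 were higher by at least 1.5-fold in iron dextran: USP18 (1.02), IRF7 (0.85), RIGI (0.69) and IRF9 (0.69). IRF1 (0.52) and STAT2 (0.25) were below that fold. Of all 12557 genes, 2.47% were at least 1.5-fold higher and 1.47% at least 1.5-fold lower. At 2-fold, USP18 was the 1 gene of the 6 past it, beside 0.741% of all genes. Because the genes were chosen with this contrast known, nothing is read from their share against these percentages. The median difference of the 6 was 0.69 and that of all 12557 genes was -0.0046, with quartiles of -0.12 and 0.14. Ordered from the largest difference down, USP18 stood at place 89, IRF7 at 132, RIGI at 221, IRF9 at 223, IRF1 at 391 and STAT2 at 1693.

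The share of genes at least 1.5-fold higher in iron dextran depended on level. It was 4.73% for means from 1 to 5 FPKM, where RIGI and USP18 lie, 2.01% from 5 to 20 FPKM, where STAT2, IRF1, IRF7 and IRF9 lie, and 0.623% above that. These bands were set after the data had been seen. Without the filter, IFIH1 (0.64) was past 1.5-fold while DDX60 (0.57) and EIF2AK2 (0.15) were not, which makes 5 of 9, beside 2.49% of the 17452 genes above 0 in at least 1 sample. On the plain FPKM ratio 7 of the 9 reached 1.5, beside 9.83% of the 16140 genes above 0 in both samples; STAT2 and EIF2AK2 did not. Scaling both samples to the same FPKM total raised the median difference of all genes by 0.11, and that of the 6 to 0.80. It also raised the share of higher genes among those past 1.5-fold in either direction from 62.6% to 78.1%. All 9 genes stayed above control under this scaling, under centring on the median and under a trimmed mean of M values. These multiplied the iron dextran values by 1.087, 1.004 and 0.993. The smallest ratio of the 9 was 1.21, so none could have fallen below control and nothing is read from this.

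**Figure D2:**
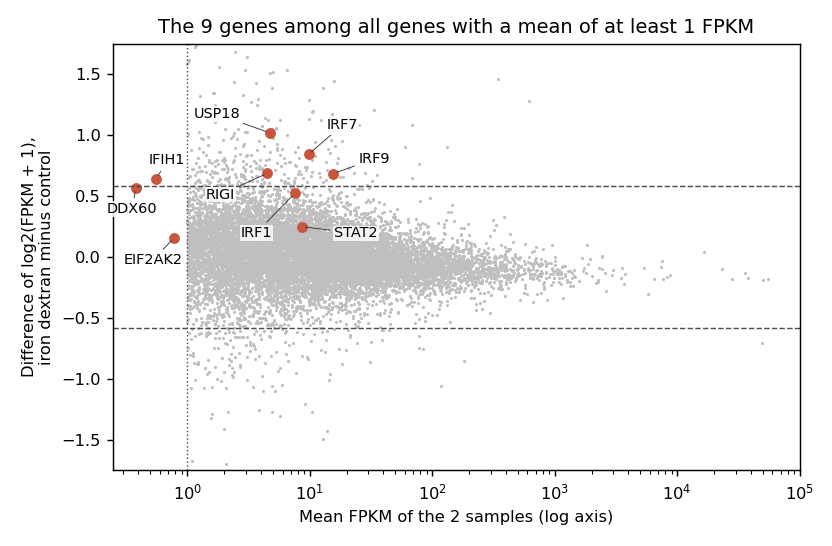
Iron dextran minus control on the log2(FPKM + 1) scale, against the mean FPKM of the 2 samples on a log axis, with grey points for the genes with a mean of at least 1 FPKM and red points for the 9 genes. Dashed lines mark 1.5-fold and the dotted line marks 1 FPKM; 60 grey genes lie beyond the vertical range, and USP18, IRF7, RIGI and IRF9 lie above the upper dashed line among the genes that passed the filter.

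Among other sensors of nucleic acids, the iron dextran sample exceeded control by 1.5-fold or more for DHX58 and OAS2, and for no adaptor or kinase of the signal that passed the filter. Of 23 other sensors listed, 15 had a matching ID and 9 passed the filter; all 9 were above 0, 2 were at least 1.5-fold higher and none was lower by that much, with a median of 0.24. With pseudocounts of 0.1 and 0.01 the count was 4 of 9, STING1 and ZBP1 being the others, and the median was 0.35 and 0.37. The share of all genes was not computed at these pseudocounts, so nothing is read from that count. At the same total the median was 0.36. DHX58, which encodes LGP2, the third RIG-I-like receptor, had 3.10 FPKM in control and 7.52 FPKM in iron dextran, a ratio of 2.43. RIGI stood at 1.04 times the level of DHX58 in control and at 0.772 times in iron dextran. OAS2, an RNA-activated synthetase, had 7.31 and 14.99 FPKM.

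Sensors of DNA and of endosomal RNA had lower levels. STING1, the adaptor of DNA sensing, had 1.09 FPKM in control and 2.07 FPKM in iron dextran, and ZBP1, a sensor of Z-form nucleic acids, had 0.943 and 1.61 FPKM. CGAS, the DNA sensor upstream of STING1, had 0.185 and 0.314 FPKM, and TLR3, the endosomal sensor of double-stranded RNA, had 0.442 and 0.669 FPKM. ADAR, which edits double-stranded RNA and can keep it from the sensors, had 11.8 and 14.2 FPKM. TLR7 (0.421 and 0.434 FPKM) and DDX3X (38.3 and 39.3 FPKM), chosen after their values had been seen, were nearly level between the samples.

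Of 22 sensor cofactors and adaptors, 17 matched and 16 passed the filter, 7 above 0 and 9 below, and none was past 1.5-fold in either direction (median -0.05). MAVS, the adaptor of RIG-I and MDA5, had 18.2 FPKM in control and 15.8 FPKM in iron dextran. The largest differences were those of RNF135, a ubiquitin ligase of RIG-I, with 3.94 and 2.84 FPKM, RIOK3, with 4.98 and 6.65 FPKM, TICAM1, the adaptor of TLR3, with 2.65 and 3.65 FPKM, and ZC3HAV1, which binds viral RNA, with 2.90 and 3.904 FPKM. TRIM25, a ubiquitin ligase that acts on RIG-I and also joins ISG15 to proteins, was listed at 0 in control and had 0.968 FPKM in iron dextran. It lay below the filter and was chosen after its values had been seen. Its 0 in control can be a failed estimate, so absence from that sample is not shown. Of 14 kinases and NF-kB genes, 12 matched and 8 passed, 3 above 0 and 5 below, with none past 1.5-fold (median -0.07). IKBKG had 28.0 and 22.4 FPKM, the inhibitor NFKBIA 29.4 and 24.1 FPKM, NFKBIB 69.1 and 60.3 FPKM, and the kinase CHUK 13.5 and 15.04 FPKM. TBK1, the kinase that activates IRF3, had no ID paired with that symbol.

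Interferon genes themselves were at or near 0. IFNB1, IFNK and IFN-DELTA-1 were listed at 0 in both samples, and IFNE was listed at 0 in control and had 0.286 FPKM in iron dextran. An exact 0 can be a failed estimate in this table, since NFKB1, a gene used by most cells, was also listed at 0 in both. The other 9 ligands of the list, IFNG among them, had no paired ID. Of 6 receptor genes 1 had a paired ID, IFNGR1, the receptor of interferon gamma, with 25.3 FPKM in control and 26.7 FPKM in iron dextran. IFNAR1, IFNAR2 and IFNGR2 had none, so the receptor of type I interferon is not described.

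Of 10 other JAK and STAT genes, 9 matched and 8 passed the filter, 7 above 0 and 1 below, with none past 1.5-fold and a median of 0.17. JAK1 had 8.25 FPKM in control and 11.8 FPKM in iron dextran, while TYK2, its partner at the type I receptor, had 7.51 and 7.65 FPKM. JAK2 had 1.07 and 1.40 FPKM, JAK3 had 7.22 and 8.51 FPKM, and STAT3 had 9.64 and 10.6 FPKM. Of 10 other interferon regulatory factors and their partners, 6 matched and 4 passed, 2 on each side of 0 and none past 1.5-fold (median -0.02). IRF5, a factor of immune cells, had 1.39 and 1.98 FPKM, IRF2, an antagonist of IRF1, had 9.29 and 9.73 FPKM, and IRF2BPL had 21.0 and 19.5 FPKM. Among the interferon regulatory factors that passed, IRF3 was the 1 with a lower value in iron dextran.

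Negative regulators other than USP18 did not share its difference. Of 27 listed, 17 matched and 16 passed, 9 above 0 and 7 below, with none past 1.5-fold (median 0.02). SOCS1, an inhibitor of JAK kinases that interferon induces, had 3.10 FPKM in control and 2.55 FPKM in iron dextran. RBCK1 had 17.4 and 12.9 FPKM, TNFAIP3, an inhibitor of NF-kB, 1.79 and 1.25 FPKM, the phosphatase PTPN1 13.3 and 11.3 FPKM, and the phosphatase PTPN2 4.12 and 5.19 FPKM. SOCS3 had no paired ID.

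Relatives of the 9 genes by protein family, leaving out the helicases listed as sensors, had medians close to 0. DHX58, the third RIG-I-like receptor, was counted with the other sensors above and was past 1.5-fold (1.06). DHX9 (0.20), DHX36 (0.15) and DDX3X (0.04) were also counted there and were not past it. Of 39 DEAD and DEAH box and related RNA helicases not listed as sensors, 33 matched and all 33 passed the filter. None was past 1.5-fold, with differences from -0.22 to 0.26 (median -0.02). The extremes were DDX27 (15.3 FPKM in control, 12.98 FPKM in iron dextran) and MTREX (6.70 and 8.25 FPKM); DDX52 had 4.07 and 4.85 FPKM and DHX57 had 3.07 and 3.62 FPKM. Of 40 other ubiquitin-specific proteases, 33 matched, 28 passed and none was past 1.5-fold, with differences from -0.14 to 0.50 (median -0.04). USP53 had 2.28 and 3.63 FPKM, a plain ratio of 1.59. With pseudocounts of 0.1 and 0.01 and at the same total, 1 protease was past 1.5-fold. The share of all genes that were higher was 3.71% at the same total and was not computed at those pseudocounts. USP39 had 1.14 and 1.68 FPKM, USP38 had 3.16 and 3.85 FPKM, and USP54 had 8.61 and 10.199 FPKM.

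PKR shares its substrate with 3 other kinases, of which HRI (the product of EIF2AK1) is controlled by haem. EIF2AK1 had 27.1 FPKM in control and 27.7 FPKM in iron dextran, and EIF2AK3, the kinase of the endoplasmic reticulum, had 3.82 and 4.48 FPKM. Of 23 genes of the eIF2 pathway and its stress response, 14 matched and passed, of which 5 were above 0 and 9 below, none past 1.5-fold (median -0.02). EIF2B4 had 20.7 and 24.0 FPKM, EIF2B3 had 36.1 and 32.1 FPKM, and the phosphatase subunit PPP1R15B had 15.2 and 17.2 FPKM. EIF2AK4, ATF4 and DDIT3 had no paired ID. With both samples at the same total, 7 of 13 list medians turned from below to above 0: those of the adaptors, kinases and NF-kB, other interferon regulatory factors, eIF2 genes, helicases, proteases and targets of interferon gamma.

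**Figure D3:**
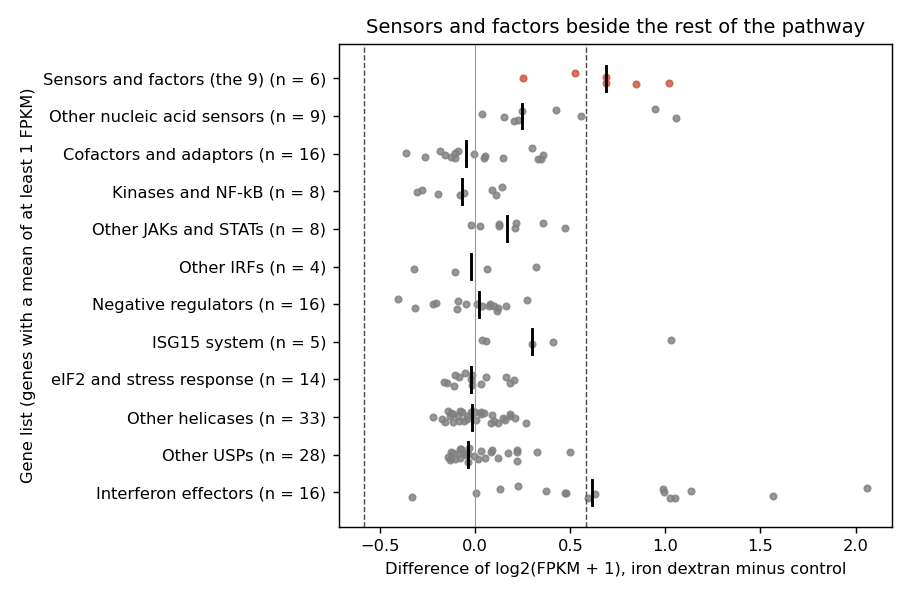
Iron dextran minus control on the log2(FPKM + 1) scale, for each gene with a mean of at least 1 FPKM (1 point per gene, spread vertically at random), by list, with black bars for medians and dashed lines at 1.5-fold. Sensors and factors (median 0.69, red) and interferon effectors (median 0.61) lie to the right. Adaptors, kinases, helicases not listed as sensors, and proteases centre near 0.

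Genes near the 9 on the chromosome were nearly level between the samples. For each of the 9, the nearest gene with a named row was taken on either side, by gene order in the RefSeq table of assembly Sscrofa11.1. The files' own build is an older one, so only the order was used. Genes without a named row were passed over, 4 of them between SLC22A4 and IRF1, so not every neighbour is directly adjacent. Of these 18 neighbours, 13 passed the filter and none was past 1.5-fold in either direction, with differences from -0.17 to 0.27 and a median of -0.01. Next to RIGI lie ACO1, which encodes the cytosolic aconitase that doubles as iron regulatory protein, with 14.1 FPKM in control and 13.8 FPKM in iron dextran, and TOPORS, with 5.10 and 5.38 FPKM. Next to IRF9 lie PSME2, a proteasome activator subunit that interferon gamma induces, with 22.2 and 24.1 FPKM, and REC8, with 2.49 and 2.53 FPKM. Next to IFIH1 lie FAP, with 3.16 and 2.71 FPKM, and GCA, with 8.35 and 8.90 FPKM. PEX26, with 1 gene between it and USP18, had 5.39 and 5.60 FPKM, and PHRF1, beside IRF7, had 8.13 and 8.01 FPKM. The choice to look at neighbours was made after the data had been seen. The 9 genes were themselves chosen with this contrast known, so their place above their neighbours was largely set by that choice. Nothing is read from it.

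**Figure D4:**
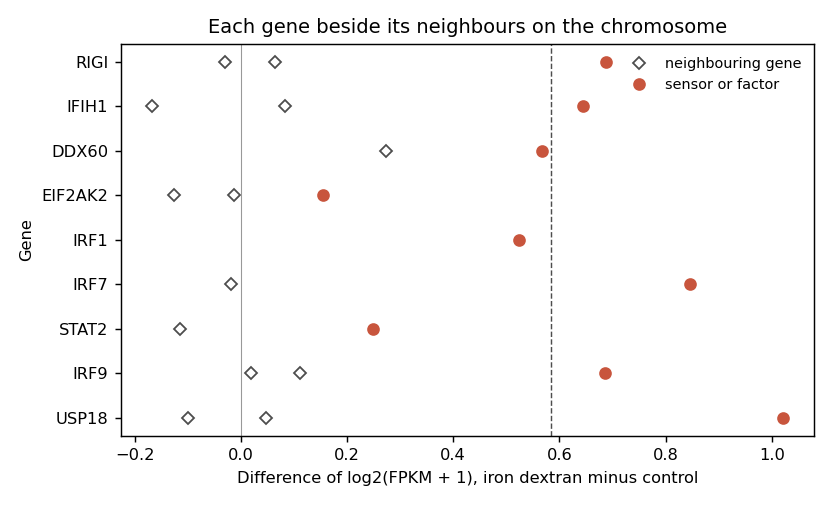
Iron dextran minus control on the log2(FPKM + 1) scale, for each of the 9 genes (red circles) and its neighbours on the chromosome that passed the filter (open diamonds), with a dashed line at 1.5-fold. The red circles lie to the right of their own neighbours, which run from -0.17 to 0.27, and IRF1 had no neighbour that passed. The 9 genes were chosen with this contrast known, so nothing is read from that placement.

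Markers of some cell types differed between the samples as well. Of 23 microglia and macrophage markers, 16 matched and 14 passed, of which 12 were above 0 and 2 at least 1.5-fold higher, and the summed level was 199.95 FPKM in control and 240.4 FPKM in iron dextran (ratio 1.203). Defining markers were P2RY12 (9.80 and 20.05 FPKM), GPR34 (5.14 and 10.1 FPKM), CX3CR1 (11.3 and 15.7 FPKM), TYROBP (26.5 and 28.6 FPKM) and SALL1 (6.99 and 5.40 FPKM). Erythroid genes summed to 189 and 519 FPKM (ratio 2.74), of which HBB alone had 183 and 506 FPKM, so the sum is mostly that of 1 gene. All 3 erythroid genes that passed were at least 1.5-fold higher, beside 2.47% of all genes that passed. Leukocyte genes summed to 6.15 and 7.29 FPKM (10 matched, 3 passed, none past 1.5-fold), with the pan-leukocyte gene PTPRC at 1.09 and 1.95 FPKM. None of the matched markers of the 11 cell type and tissue lists was listed at 0 in both samples. The part of these cells in the differences of the 9 genes was not tested, and in bulk tissue more cells of a type and more RNA per cell cannot be told apart.

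Neuronal, astrocyte, oligodendrocyte, endothelial and mural cell markers had no member past 1.5-fold. The summed level was 4948 FPKM in control and 4766 FPKM in iron dextran over 11 neuronal genes, 3530 and 3305 FPKM over 9 astrocyte genes, and 9829 and 8640 FPKM over 8 oligodendrocyte genes. With both samples at the same total the neuronal sum (5181 FPKM) and the astrocyte sum (3592 FPKM) were above control in iron dextran and the oligodendrocyte sum (9391 FPKM) stayed below, and 4 of 11 marker list medians turned from below to above 0: those of the neuronal (-0.03 to 0.09), endothelial, mural cell, and choroid plexus and ependyma lists. For the label of the tissue, 11 of 15 hippocampal subfield markers matched and 8 passed, 4 above 0 and 4 below, none past 1.5-fold. FIBCD1, of CA1, had 29.6 and 28.8 FPKM, C1QL2, of the dentate gyrus, had 10.9 and 10.3 FPKM, and GRIK4, of CA3, had 11.1 and 10.23 FPKM. Other markers differed more, from NECTIN3 (11.1 and 8.50 FPKM, -0.35) to CALB1 (0.802 and 1.56 FPKM, 0.50, a plain ratio of 1.94). C1QL3 had 11.5 and 16.5 FPKM and POU3F1 had 12.2 and 16.2 FPKM. Whether the 2 samples held the same share of each subfield was not tested. PROX1 (0.761 and 0.858 FPKM) and ZBTB20 (0.150 and 0.0820 FPKM), both known from dentate granule cells, were low in both samples.

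Of 41 interferon-induced effectors listed, which carry out the antiviral response, 24 matched, 17 did not and 16 passed the filter. The median difference of the 16 was 0.61, with 9 at least 1.5-fold higher, beside 2.47% of all genes, and none lower by that much. RSAD2, MX2 and SAMD9, 3 of these 9, were below 1 FPKM in control and passed through their iron dextran value, so the count among genes that passed supports nothing. Over all 24 without the filter the median was 0.47 and 11 were past 1.5-fold, beside 2.49% of all genes above 0 in at least 1 sample. The list was written with earlier results of these data known, so nothing is read from either count. RSAD2 had 0.0948 and 3.57 FPKM, MX2 0.422 and 3.21 FPKM, IFIT1 5.80 and 13.9 FPKM, and IFI44L 2.85 and 6.98 FPKM.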

How the data were processed

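RNA sequencing of piglet hippocampus gave 1 control and 1 iron dextran sample. Per the submitters' processing notes, reads were trimmed with cutadapt 1.2.1 and aligned with TopHat, with builds Sscrofa10.2 and susScr3 named; the TopHat version, the program behind the values, the annotation and strand use are not stated there or in the labels. The values are FPKM, in a table deposited by the authors, 1 column per sample, assigned by the letter shared with the sample title. Symbols matched 11804 of 25322 IDs, so unmatched genes of a list could not be identified here. They may have values under an ID without a symbol.

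Differences of log2(FPKM + 1) were computed in Python 3.11.15 (pandas 2.3.3); the code was tested on simulated data. Genes needed a mean of at least 1 FPKM, and the fold was 1.5. No test was possible with 1 sample per group. FPKM totals were 924070 and 850165. Depth was looked for in 587 genes with a mean under 0.1 FPKM: ratios piled up at 0.946 (195 genes), and at 2 (93) and 0.5 (68) times that, within 0.05 log2 units, so iron dextran had about 1.06 times the depth of control if these are whole fragments. Absolute depth is unknown.

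The members and lists were chosen with earlier results of these data known. Named are the 9 genes, 27 pathway genes whatever their values (17 matched, 10 did not) and up to 4 per list with the largest absolute difference; markers and neighbours named were chosen after their values were seen. Of these, 1 is not reported here. Promoter and protein features were planned and are not analysed here. Alternatives are given at the end.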

Additional observations from a re-analysis of the deposited data

How the results depend on the processing

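All 9 genes were higher in iron dextran under every scaling tried. The scalings multiplied the iron dextran values by 0.993 or more and the smallest ratio was 1.21, so this could not have come out otherwise. The number at least 1.5-fold higher (4 of 6) ranged from 4 to 5 with pseudocounts of 0.1 and 0.01, the 3 scalings and no filter. It was 2 (of 4) at a mean of at least 5 FPKM, 1 at a fold of 2, and 7 (of 9) on the plain ratio, against 5 of 6 on the plain ratio with the filter kept, both added after seeing the data. The median difference of 0.69 was 0.79 with a pseudocount of 0.01 and on the plain ratio of the same 6 genes, 0.78 with a pseudocount of 0.1, 0.80 at the same total, 0.69 centred on the median, 0.68 with the trimmed mean, 0.64 without a filter and 0.60 at a mean of at least 5 FPKM; on the plain ratio of all 9 it was 0.85. The share of all genes that were higher was 2.47% at 1.5-fold and 0.741% at 2-fold. At 1.5-fold it was 3.71% with the same total, 2.52% centred on the median and 2.40% with the trimmed mean. It was 1.35% over the 8394 genes with a mean of at least 5 FPKM. Without the filter it was 2.49%, and on the plain ratio 9.83% of genes above 0 in both samples. It was not computed with pseudocounts of 0.1 and 0.01 or on the plain ratio with the filter. Nothing is read from the counts at those settings. IRF1 lies near the limit, at a plain ratio of 1.51 as deposited and 1.4999 with the trimmed mean of M values. Of 13 list medians, 7 changed sign at the same total and 0 with the other scalings; those of negative regulators (-0.05) and gamma targets (0.0079) also did at a mean of at least 5 FPKM and that of other interferon regulatory factors (0.02) without a filter. The promoter alternatives were not run. No paired analysis was possible because each group was 1 sample, and for the same reason no replicate could be left out. Unknown depth limits the genes under 1 FPKM most.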

Other observations

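Targets of interferon gamma, the type II interferon, had 8 of 12 genes with a paired ID, of which 3 passed the filter and none was past 1.5-fold (median -0.11; 0.0048 with both samples at the same total). GBP2, an interferon-induced GTPase, had 14.4 FPKM in control and 15.8 FPKM in iron dextran, WARS1, a tRNA synthetase, had 47.3 and 43.6 FPKM, and SOCS1 had 3.10 and 2.55 FPKM. GBP1 (0.0675 and 0.608 FPKM), IDO1 (0.828 and 0.334 FPKM) and CIITA (0.0756 and 0.117 FPKM), chosen after their values had been seen, lay below the filter and went in different directions.

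The 5 genes outside the lists whose pair of levels lay closest to the median of the 9 genes, by distance in log2(FPKM + 1) over the 2 samples, were CNR1, GRM5, ZFAND5, NRARP and DMP1. The cannabinoid receptor CNR1 had 3.04 FPKM in control and 6.36 FPKM in iron dextran, and the glutamate receptor GRM5 had 3.09 and 6.14 FPKM. With 2 samples, closeness of this kind says only that the levels were alike.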
